A study of Mus musculus with 7 samples.

Results

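The peaks described here lay at 8 developmental transcription factor genes, the POU class III genes Pou3f1, Pou3f2 and Pou3f3, the Otx genes Otx1 and Otx2, and the Zic genes Zic1, Zic2 and Zic5. A merged H3K27ac peak was counted as a member when it overlapped the body of 1 of these genes or the 10 kb on either side of it, in GENCODE's annotation of the mouse mm10 genome. The rule found 27 of the 66841 merged peaks, with 4 at Pou3f1, 4 at Pou3f2, 1 at Pou3f3, 8 at Otx2, 4 at Zic1, 4 at Zic2 and 6 at Zic5. Zic2 and Zic5 are neighbours and shared 4 of these peaks. No merged peak lay within 10 kb of Otx1. H3K27ac is an acetylation of histone H3 that marks active promoters and enhancers, and a peak is a stretch of the genome where reads from the immunoprecipitated chromatin pile up.

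The study asked how active chromatin is remodelled when NeuroD1, a neurogenic bHLH factor, is switched on. The cells were A2Lox mouse ES cells, of the transgenic line A2lox-NeuroD1 in which doxycycline induces NeuroD1, and they had been freed of feeders. The 0 h cells received no doxycycline, and the 12 h and 48 h cells received 500 ng per ml of it for that time. Each time point had 2 H3K27ac libraries, R1 and R2, and the counts of these 6 libraries in the merged peaks were deposited without normalisation. The cells were collected in bulk, so that fewer cells with the mark and less of the mark per cell cannot be told apart. Nothing in the labels says that R1 and R2 were separate cultures, and the p-values then measure only the spread between these libraries.

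The POU class III, Otx and Zic genes encode transcription factors of early neural development. Otx2 is a homeobox factor of the epiblast and of the anterior neural plate that also takes part in the exit of ES cells from naive pluripotency. Pou3f1 and the closely related Pou3f2 and Pou3f3 encode POU factors of neural commitment, of neural progenitors and of cortical neurons, and Pou3f2 is a standard factor for turning fibroblasts into neurons. Zic genes encode zinc finger factors of the neural plate and neural tube, and Zic2 is already active in pluripotent cells. Acetylation at the promoter of such a gene generally accompanies its transcription, which was not examined here.

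NeuroD1 binds E-boxes, short sites of the form CANNTG, and CAGATG is a flavour often given for neurogenic bHLH factors. Within 250 bp of the centre, on either strand, 6 of the 27 peaks held CAGATG (22.2%), and 29.3% of all merged peaks did. The same count was 14.8% against 25.2% for CAGCTG, 22.2% against 37.0% for CAGGTG, and 85.2% against 89.2% for any CANNTG. Over whole peaks the shares were 48.1% against 43.8% for CAGATG and 40.7% against 38.4% for CAGCTG. The single peak of Pou3f3 was not called, nor was the peak chr14:122472008-122472637 upstream of Zic2, whose CAGATG site is not printed. The CAGATG sites in the central windows of peaks of Pou3f2, Pou3f3, Otx2 and Zic5 are printed with 10 bases of mm10 on either side. Sequences run 5′ to 3′ on the strand named, with the E-box in capitals.
Pou3f2 coding exon peak, chr4:22487654-22487679, plus strand: cgtggtgcacCAGATGtggcggtcgc
Pou3f3 upstream peak, chr1:42694966-42694991, plus strand: gcaggtttccCAGATGatggcatccg
Pou3f3 upstream peak, chr1:42695166-42695191, minus strand: tacctatagaCAGATGtgtccccact
Otx2 3′ peak, chr14:48654432-48654457, plus strand: tttaagtatgCAGATGctgcgataag
Otx2 3′ peak, chr14:48654676-48654701, plus strand: ttaacattgaCAGATGtggttttggg
Otx2 intron peak, chr14:48663887-48663912, minus strand: caaaggaacaCAGATGacttttcttt
Zic5 promoter peak, chr14:122464205-122464230, plus strand: cagccacttgCAGATGagctcccgct

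The binding sites of the POU and Otx factors themselves were rarer in the same windows. The octamer ATGCAAAT, the classical site of POU factors, was found in 1 of the 27 peaks (3.70%, against 2.26% of all merged peaks). TAATCC, the site of Otx factors, was found in 1 of 27 (3.70%, against 16.5%). The octamer lay 2 bp from the centre of the intergenic peak between Zic5 and Zic2, whose H3K27ac followed another course than that of the promoters on its sides. The TAATCC site lay in a peak of Otx2 itself. Both are printed with the site in capitals.
Zic5 to Zic2 intergenic peak, chr14:122468353-122468380, plus strand: agatgtattcATGCAAATtctgtccttt
Otx2 coding exon peak, chr14:48661984-48662009, minus strand: cctgtcccttTAATCCttagaggtgt

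The comparisons used edgeR's quasi-likelihood test, in a single model of the 6 libraries over all merged peaks, with Benjamini-Hochberg adjustment and a threshold of 0.05, and a call is a gain or a loss by its sign. Levels are scaled counts, that is, reads set to a common library total, the mean of the 6 totals in merged peaks. These totals ran from 6283103 to 8112895 reads. The model had 3 residual degrees of freedom, and the biological coefficient of variation was 14.9%. Of the 27 peaks, 16 held at least 20 reads on average, and 4 held at most 3 reads in both 0 h libraries. For those 4 peaks reads are given and no fold over 0 h.

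The libraries at 48 h were less alike than the others. Over all merged peaks, R1 and R2 gave a chi-square per degree of freedom of 1.81 before induction, 1.42 after 12 h and 5.72 after 48 h. At 48 h R1 was the higher library in all 4 peaks of Pou3f1, all 4 of Pou3f2, the single peak of Pou3f3 and all 4 of Zic1, whereas R2 was the higher in 7 of the 8 peaks of Otx2. The 48 h libraries also differed in the summed scaled counts of 7 ES cell markers (Pou5f1, Nanog, Sox2, Esrrb, Zfp42, Klf4 and Tfcp2l1), all of which had a peak. Their sum was 20115 to 20357 at 0 h, 22279 to 22547 at 12 h, and 13680 (R1) and 17101 (R2) at 48 h. Sox2 (2223 and 2119) and Klf4 (318 and 254) were higher in R1 at 48 h, unlike the sum. At 48 h vs 0 h Esrrb (−0.53, adjusted p = 0.0263) and Tfcp2l1 (−0.86, adjusted p = 0.00723) were lost, and the other 5 were not called. At 12 h Pou5f1 alone was called, as a gain (0.30, adjusted p = 0.032). Among 6 neuron markers, Dcx had no peak. The other 5 summed to 1841 and 2002 in the 0 h libraries and to 2444 and 2576 in those of 48 h. At 12 h Elavl4 (0.54, adjusted p = 0.0102) and Map2 (0.85, adjusted p = 0.0126) were gained and Elavl3 was lost (−1.06, adjusted p = 0.00651). At 48 h vs 0 h Map2 (1.90, adjusted p = 0.0002) and Tubb3 (0.91, adjusted p = 0.00438) were gained. Elavl3 (−0.58), Elavl4 (0.28) and Stmn2 (−0.09) were not called there. Of 9 fibroblast markers for left-over feeders, Dcn, Postn, Prrx1, Thy1 and Twist2 had no peak and the other 4 summed to 353 to 439 in every library. Of those 4, Col3a1 (1.62, adjusted p = 0.00789) and Col1a2 (1.12, adjusted p = 0.0168) were gained at 12 h and Col1a1 was lost (−0.44, adjusted p = 0.038). The part of these shifts in the results below was not tested.

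Most of the called changes at these genes were gains of H3K27ac, at Otx2 by 12 h and at the POU genes and Zic1 by 48 h. At 12 h vs 0 h, 7 of the 27 peaks were gained (25.9%), against 9.93% of all merged peaks, and 6 of the 7 belonged to Otx2. At 48 h vs 0 h, 14 were gained (51.9%, against 8.56%), among them 6 of 9 POU peaks, 4 of 8 Otx2 peaks and 4 of 10 Zic peaks. At 48 h vs 12 h, 10 were gained (37.0%, against 10.7%) and 1 was lost (against 8.43%). With all libraries in the model, none was lost relative to 0 h by edgeR or DESeq2. By edgeR, 6.03% of all peaks were lost at 12 h and 5.45% at 48 h. At an unadjusted edgeR p under 0.05 the members below 0 h numbered 2 at 12 h and 0 at 48 h. The median log2 fold change of the 27 peaks was 0.73, 1.22 and 0.65 in the 3 comparisons, and that of all peaks was −0.08, −0.04 and −0.03. Both 48 h libraries lay above both 0 h libraries in 19 of the 27 peaks, against 23.9% of all peaks.

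**Figure D1:**
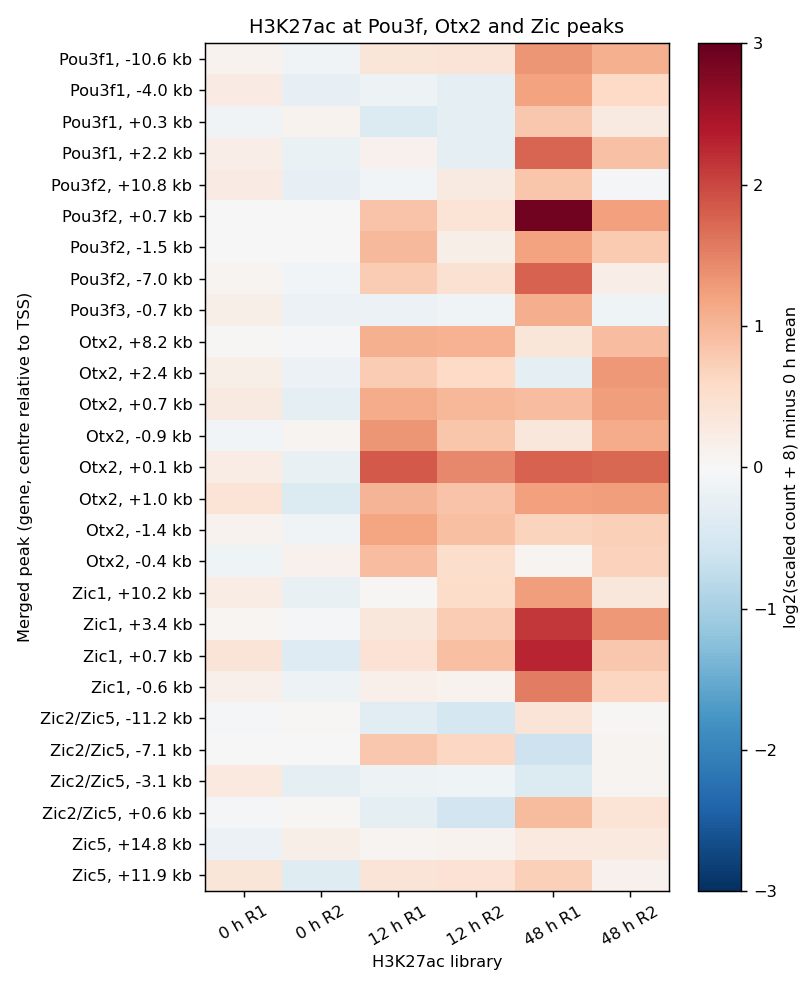
H3K27ac in the 27 merged peaks (rows, labelled with the gene and the distance of the peak centre from the nearest TSS of that gene, of Zic2 for the shared peaks) in the 6 libraries (columns), as log2(scaled count + 8) minus the mean of the 0 h libraries. The 8 rows of Otx2 are red at 12 h, the rows of Pou3f1, Pou3f2 and Zic1 are reddest in 48 h R1, and the row of the peak between Zic5 and Zic2 is red at 12 h alone.

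These counts depended on single libraries. The numbers of calls below take gains and losses together. Losses against 0 h were among them at 12 h without 48 h R1 or 48 h R2, and at 48 h without 48 h R2. The 7 calls of 12 h vs 0 h became 4 without 0 h R1, 2 without 0 h R2, 3 without 12 h R1 and 3 without 12 h R2, and 12 without 48 h R1 and 13 without 48 h R2. The 14 calls of 48 h vs 0 h became 8 without 0 h R1, 4 without 0 h R2, 11 without 48 h R1 and 19 without 48 h R2. The 11 calls of 48 h vs 12 h became 3 without either 12 h library, 6 without 48 h R1 and 16 without 48 h R2. A comparison that keeps a single library at 1 time point borrows its spread from the other groups.

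Otx2 had gained H3K27ac by 12 h in 6 of its 8 peaks, and in 6 of the 8 both 48 h libraries also lay above 0 h. Its 8 peaks spread from just upstream of the gene to past its 3′ end (chr14:48657677-48673819, minus strand), in a stretch where the noncoding gene Otx2os1 overlaps it. In all 8, both 12 h libraries lay above both 0 h libraries, which held for 30.7% of all peaks. The clearest was the peak over an internal promoter at chr14:48664241-48665741, at a TSS of Otx2's shorter transcripts. It held scaled counts of 28.7 and 19.1 (R1 and R2) before induction, 105 and 77.3 after 12 h, and 99.9 and 96.3 after 48 h. The 12 h and 48 h libraries overlapped each other and stood clear of those at 0 h. The log2 fold change was 1.92 ± 0.30 (SE, adjusted p = 9.95e-05) at 12 h and 2.03 ± 0.30 (adjusted p = 3.98e-05) at 48 h vs 0 h, and both calls held in each alternative run, without any 1 library included. From 12 h to 48 h it moved by 0.11 ± 0.25 (adjusted p = 0.795).

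Gains at Otx2 took in its promoters, its introns and its 3′ end. The peak with the most reads at an Otx2 promoter, over coding exons at chr14:48660825-48663551, held 135 and 89.2 before induction, 248 and 226 after 12 h, and 217 and 273 after 48 h. The 0 h libraries were below all others, with gains of 1.07 ± 0.22 by 12 h (adjusted p = 0.00199) and of 1.12 ± 0.22 by 48 h (adjusted p = 0.00114). Without 0 h R2 these became 0.81 (adjusted p = 0.14) and 0.85 (adjusted p = 0.12). The widest peak, chr14:48650923-48658446, covers the 3′ end of the gene and the region downstream. It held 759 and 712 before induction, 1536 and 1524 after 12 h, and 943 and 1409 after 48 h, a gain of 1.06 ± 0.17 at 12 h (adjusted p = 0.000103). At 48 h R2 was near the 12 h level while R1 had come part of the way back to 0 h, and without 48 h R2 the step from 12 h to 48 h was a loss of −0.70 (adjusted p = 7.2e-09), where the full set gave −0.38 (adjusted p = 0.104).

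Also called at 12 h were the intronic peaks chr14:48663638-48663981, chr14:48665818-48667170 and chr14:48668786-48669140, with log2 fold changes of 2.18, 0.99 and 1.99 (adjusted p of 0.0212, 0.0239 and 0.0203). Each of those calls was lost without 0 h R2, 12 h R1 or 12 h R2, with adjusted p from 0.05 to 0.37, and the first and the last also without 0 h R1 (0.15 and 0.078). At 48 h vs 0 h the calls were those of the widest peak (0.68, adjusted p = 0.00701), the coding exon peak, the internal promoter peak and chr14:48665818-48667170 (1.33, adjusted p = 0.00268). Without 0 h R2 the internal promoter alone passed, and the adjusted p of the widest peak and of the last were 0.18 and 0.17. The remaining peaks were the intronic chr14:48660218-48660727 and, just upstream of the longest transcript, chr14:48673925-48674495, with 1.09 (adjusted p = 0.205) and 1.04 (adjusted p = 0.0885). None of the 8 was called at 48 h vs 12 h by edgeR or DESeq2. At an unadjusted p under 0.05, 1 was lower and 0 were higher, and the 8 log2 fold changes ran from −0.54 to 0.34.

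Pou3f1 had no called change at 12 h, and each of its 4 peaks was gained from 12 h to 48 h. The gene is short (chr4:124656807-124660655, plus strand), and the peak chr4:124657724-124660340 lies over its coding exon. It held scaled counts of 143 and 107 before induction, 137 and 101 after 12 h, and 435 and 235 after 48 h. Levels at 0 h and 12 h overlapped, and both 48 h libraries lay above them. By 12 h the mark had moved by −0.07 ± 0.26 (adjusted p = 0.871). By 48 h it had gained 1.41 ± 0.25 over 0 h (adjusted p = 0.000398) and 1.49 ± 0.25 over 12 h (adjusted p = 0.000435). Without 0 h R2 the gain over 0 h was 1.23 (adjusted p = 0.066).

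The upstream peaks of Pou3f1 rose along with the gene body. The peak at chr4:124644733-124647760 held 168 and 144, then 201 and 207, then 399 and 335, the only one of the 4 in which both 12 h libraries already stood above 0 h. It moved by 0.38 ± 0.20 in the first 12 h (adjusted p = 0.185) and by 1.23 ± 0.19 from 0 h to 48 h (adjusted p = 9.28e-05). The peak at chr4:124652158-124653418 held 56.4 and 38.2, 40.7 and 36.8, and 118 and 73.9, with a gain of 1.29 ± 0.29 over 12 h (adjusted p = 0.00433). Its gain over 0 h (1.00, adjusted p = 0.0210) was lost with DESeq2 (adjusted p = 0.056), without 0 h R1 (0.053), without 0 h R2 (0.33) and without 48 h R1 (0.084). At the TSS itself, the peak chr4:124656711-124657475 was called at 48 h vs 12 h alone, with 1.02 ± 0.28 (adjusted p = 0.0149, and 0.078 without 48 h R1). Each of the 4 gains over 12 h except that of the coding exon peak was also lost without 12 h R1 and without 12 h R2, with adjusted p from 0.056 to 0.15. With all libraries and no offset, no peak of Pou3f1 was called at 12 h vs 0 h by edgeR or DESeq2, and 0 passed an unadjusted p of 0.05. The farthest upstream peak passed at 12 h in the fit of the 4 libraries alone (adjusted p = 0.04) and without 48 h R1 (0.037) or 48 h R2 (0.036).

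**Figure D2:**
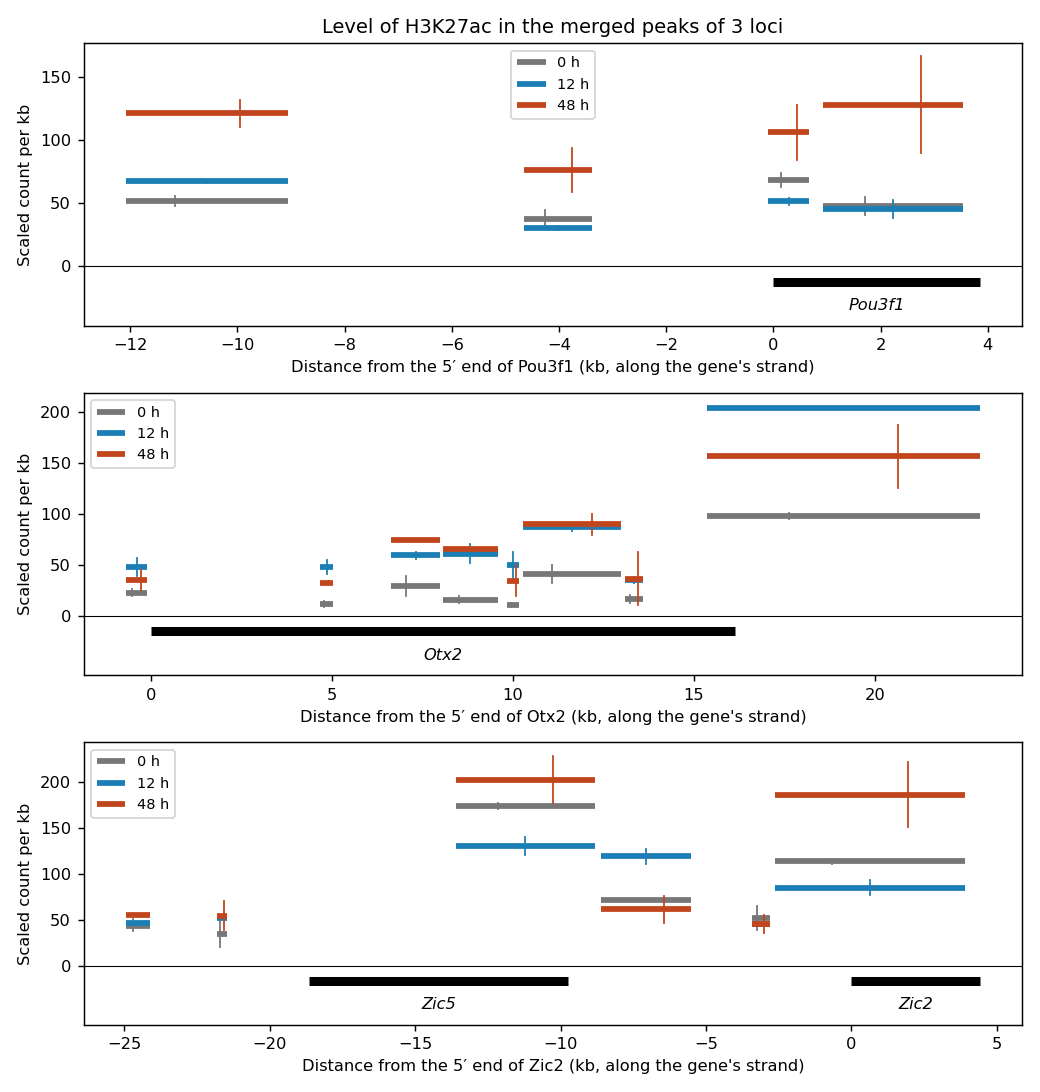
Scaled count per kb of each merged peak at Pou3f1, Otx2 and Zic2 with Zic5, against the distance from the 5′ end of the gene in kb along its strand. Horizontal bars span each peak at the mean of the 2 libraries, vertical lines join R1 and R2, and black bars are gene bodies. At Pou3f1 the 48 h bars stand above both others in all 4 peaks, at Otx2 the 12 h bars stand above 0 h in all 8, and between Zic5 and Zic2 the 12 h bar is the highest.

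Pou3f2 started from almost no H3K27ac. The peak over its single coding exon, chr4:22487056-22488252, held 8.21 and 8.49 before induction, 21.4 and 13.8 after 12 h, and 113 and 30.1 after 48 h. Every later library lay above 0 h, and the 48 h libraries were far apart. The gain at 48 h vs 0 h, 3.05 ± 0.51 (adjusted p = 0.000197), was 1.83 without 48 h R1 (adjusted p = 0.0016) and 3.74 without 48 h R2. The step from 12 h to 48 h, 2.00 ± 0.45 (adjusted p = 0.00396), fell to 0.79 without 48 h R1 (adjusted p = 0.21) and was 1.71 without 12 h R2 (adjusted p = 0.099). At 12 h the change of 1.05 ± 0.61 missed the threshold (adjusted p = 0.242). An offset for GC content, described further on, gave 1.47 (adjusted p = 0.0262).

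The peaks upstream of Pou3f2 held few reads. The peak at chr4:22489716-22490113 had 3 and 3 reads before induction, 13 and 5 after 12 h, and 16 and 13 after 48 h. It was called at 48 h vs 0 h (adjusted p = 0.0400), but not with DESeq2 (adjusted p = 0.15) or without either 0 h library or 48 h R1 (adjusted p of 0.18, 0.23 and 0.11). The peak at chr4:22495227-22495520 had 1 and 0 reads, 6 and 4, and 19 and 2. That call at 48 h (adjusted p = 0.0316) rested on 48 h R1, without which the adjusted p was 0.62, and was also lost without 0 h R1 (0.11) or 0 h R2 (0.29). The downstream peak, with 2 to 12 reads a library, was not called. Pou3f3 had a single small peak just upstream of its TSS, chr1:42694878-42695197, with 6 and 3 reads before induction, 3 and 4 after 12 h, and 17 and 4 after 48 h. Only 48 h R1 stood out there. None of the 3 comparisons passed (adjusted p of 0.776, 0.354 and 0.166), and without 48 h R2 both comparisons of 48 h did (1.98, adjusted p = 0.034, and 2.40, adjusted p = 0.0068).

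Zic1, a gene of the dorsal neural tube, also started low and rose at 48 h. Zic1 (chr9:91358058-91365810, minus strand) overlaps its paralog Zic4 on the other strand, and all 4 of its peaks lie within 10 kb of Zic4 as well, so that the mark cannot be given to 1 of the genes. The peak over the coding exon next to the TSS, chr9:91364484-91365727, held scaled counts of 20.5 and 8.49 before induction, 21.4 and 32.2 after 12 h, and 97.7 and 30.1 after 48 h. Both 12 h libraries lay above both 0 h libraries, the lower of them just so, and 48 h R2 was no higher than 12 h R2. The change was 2.09 ± 0.47 at 48 h vs 0 h (adjusted p = 0.00334) and 1.20 ± 0.42 over 12 h (adjusted p = 0.0461). Without 48 h R1 these were 1.04 (adjusted p = 0.06) and 0.15 (adjusted p = 0.85). The gain over 0 h was also lost without 0 h R2 (1.60, adjusted p = 0.17) and with DESeq2 (adjusted p = 0.11), and over all the fits it ran from 1.04 to 2.86. The gain over 12 h was lost without any of the other libraries but 48 h R2 (adjusted p from 0.075 to 0.28), with DESeq2 (0.29), with the filter on low counts (0.051) and in the fit of the 4 libraries alone (0.079).

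A smaller peak inside Zic1 kept its call against 0 h in all the fits. At chr9:91362101-91362642 there were 3 and 2 reads before induction, 5 and 11 after 12 h, and 34 and 21 after 48 h. The groups did not overlap, the comparison of 48 h with 0 h passed (adjusted p = 0.000587), and it still did without 48 h R1 (adjusted p = 0.0033). The gain over 12 h (1.78 ± 0.50, adjusted p = 0.0154) was lost without 48 h R1 (1.18, adjusted p = 0.20), 12 h R1 (0.17) or 12 h R2 (0.078). The peak upstream of the TSS, chr9:91366256-91366548, had 3 and 1, 3 and 3, and 19 and 9 reads. It was called at 48 h vs 0 h (adjusted p = 0.0258) and vs 12 h (adjusted p = 0.0398). Without 48 h R1 these adjusted p were 0.21 and 0.38, without either 0 h library they were 0.053 to 0.25, and the gain over 12 h was also lost without 12 h R1 (0.16) or 12 h R2 (0.23). With all libraries and no offset, no peak of Zic1 was called at 12 h vs 0 h by edgeR or DESeq2, and 0 passed an unadjusted p of 0.05. The peak next to the TSS passed at 12 h with the GC offset (1.30, adjusted p = 0.0176) and without 48 h R1 (0.049) or 48 h R2 (0.043). Of the 3 gains of Zic1 over 12 h, DESeq2 did not call that of the peak next to the TSS and gave no adjusted p for the others.

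Zic2 and Zic5, which are transcribed away from each other, had the highest H3K27ac per kb of these loci at 0 h, and their promoter peaks changed by at most 1.13 on the log2 scale. The promoter peak of Zic2, chr14:122472818-122479327, covers the whole gene body but its end. It held scaled counts of 723 and 759 before induction, 606 and 498 after 12 h, and 1443 and 981 after 48 h. The 12 h libraries were the lowest and the 48 h libraries the highest, with no overlap. The dip at 12 h, −0.43 ± 0.17, missed the threshold (adjusted p = 0.0952), and the gain at 48 h was 0.71 ± 0.17 vs 0 h (adjusted p = 0.00702) and 1.13 ± 0.17 vs 12 h (adjusted p = 0.000166). The gain over 0 h was lost without 0 h R1 (0.67, adjusted p = 0.11) or 0 h R2 (0.74, adjusted p = 0.13). The promoter peak of Zic5, chr14:122461841-122466615, held 814 and 848, 667 and 576, and 1089 and 847. It was called at 48 h vs 12 h (0.64 ± 0.16, adjusted p = 0.00838, 0.073 without 12 h R1 and 0.21 without 12 h R2) and not at 48 h vs 0 h (0.22 ± 0.16, adjusted p = 0.407). Both dips at 12 h passed when the 4 libraries of 0 h and 12 h were fitted alone (adjusted p of 0.00019 and 0.00016), and both nearly vanished with the GC offset (−0.10 and −0.08).

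Between these promoters, the peak at chr14:122466820-122469918 ran the other way. It was chosen for description after its values were seen, and it holds the octamer printed above. Its scaled counts were 221 and 224 before induction, 394 and 344 after 12 h, and 143 and 236 after 48 h. Both 12 h libraries stood above all others. It was gained at 12 h (0.73 ± 0.21, adjusted p = 0.0193). With all libraries, it was the only peak of the 27 that was lost at 48 h vs 12 h (−0.95 ± 0.21, adjusted p = 0.00355). Against 0 h, it moved at 48 h by −0.22 ± 0.21 (adjusted p = 0.557), and by −0.63 without 48 h R2. Its reads relative to those of the Zic2 promoter peak were 0.305 and 0.295 before induction and 0.650 and 0.691 after 12 h. After 48 h the ratio was 0.0992 and 0.241. This ratio within each library does not depend on the library total, but it takes no account of GC content. The promoter peak had 58.0% GC and the intergenic peak 44.9%. At 12 h vs 0 h they moved by −0.10 and 0.48 with the GC offset, and by −0.43 and 0.73 without it. The call at 12 h held with the GC offset (0.48, adjusted p = 0.0284) and was lost without any 1 of the 4 libraries compared (adjusted p from 0.11 to 0.21). The loss was not called without 12 h R1 (−0.85, adjusted p = 0.087). The other 3 peaks, upstream of Zic2 and downstream of Zic5, were not called, with log2 fold changes from −0.22 to 0.61.

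Summed over the peaks of each gene, the order of the loci changed with time. Per kb of peak, the mean scaled count at 0 h was highest at Zic2 (122) and Zic5 (116), followed by Otx2 (63.2), Pou3f1 (49.6), Pou3f3 (14.6), Zic1 (9.97) and Pou3f2 (7.42). Levels of Zic2 and Zic5 come largely from the same peaks, and the 0 h libraries of Pou3f3 (19.2 and 9.95) overlapped those of Zic1 (13.9 and 6.08), which overlapped those of Pou3f2 (8.49 and 6.34). At 12 h Otx2 (136) was above Zic2 (105) and Zic5 (101). These levels carry no offset for GC content, which was 47.6% at Otx2, 56.4% at Zic2 and 56.5% at Zic5. With that offset the sums moved at 12 h vs 0 h by 1.09 (Otx2), 0.19 (Zic2) and 0.21 (Zic5). Without it they moved by 1.10, −0.22 and −0.21, and the order with the offset was not tested. At 48 h the order was Zic2 (160), Zic5 (153), Pou3f1 (115), Otx2 (113), Zic1 (50.0), Pou3f2 (48.7) and Pou3f3 (34.9), and within Pou3f1 and Otx2 the libraries overlapped (137 and 92.4 against 93.8 and 132). Ranked among all merged peaks per kb, Pou3f2 went from the percentile 1.75 at 0 h to 55.3 at 48 h, and Zic1 from 3.06 to 57.4. Those means at 48 h rest on R1, at 76.1 and 73.6 per kb, while R2 was at 21.3 and 26.4.

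**Figure D3:**
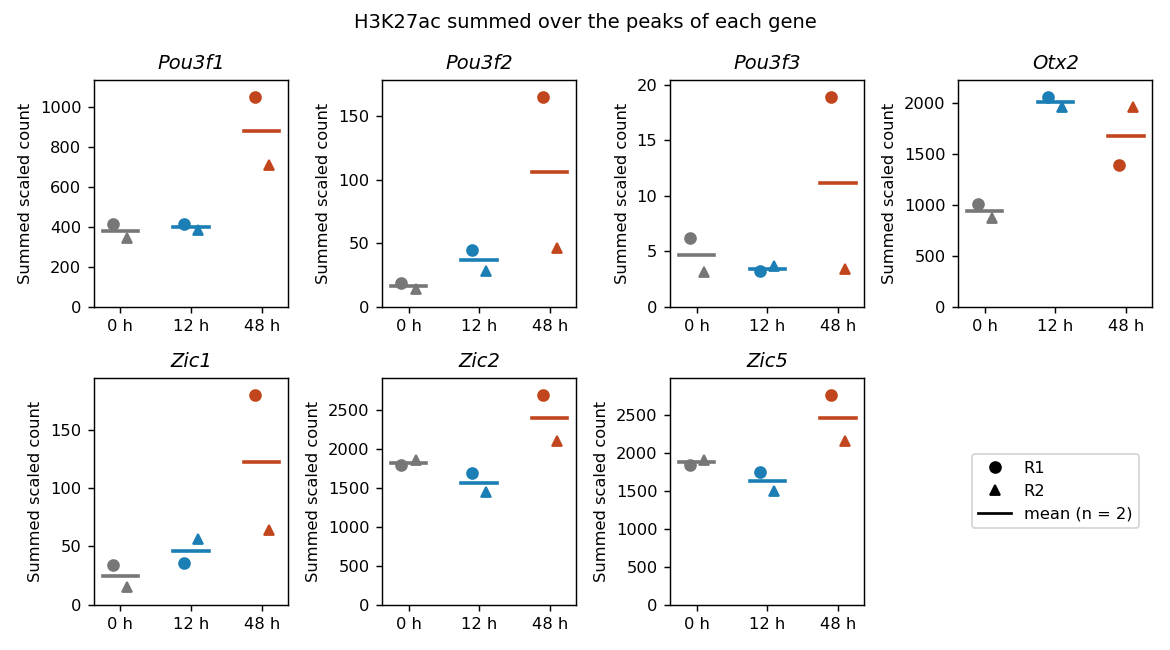
Scaled counts summed over the merged peaks of each gene, by time point (x axis), for the 7 genes with a peak, with R1 as circles, R2 as triangles and lines at the mean of 2 libraries. Axes start at 0 and differ between genes. Otx2 is at 1969 to 2066 at 12 h and at 876 to 1007 at 0 h, while Pou3f1, Pou3f2 and Zic1 are highest at 48 h, above all in R1.

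The test on the summed counts was run over 16175 protein-coding genes. Otx2 summed to 1007 and 876 before induction, 2066 and 1969 after 12 h, and 1397 and 1967 after 48 h. Otx2 was the single gene of the 7 called at 12 h without an offset (1.10 ± 0.15, adjusted p = 0.00144), where 7.13% of all genes were gained and 30.2% were lost. At 48 h vs 0 h, 4 of the 7 were gained, against 6.45% of all genes gained and 5.35% lost, namely Pou3f1 (1.20 ± 0.18, adjusted p = 0.0017), Pou3f2 (2.68 ± 0.57, adjusted p = 0.0129), Otx2 (0.84 ± 0.15, adjusted p = 0.00432) and Zic1 (2.29 ± 0.51, adjusted p = 0.0162). With the GC offset Pou3f1 (0.53, adjusted p = 0.0024), Pou3f2 (1.66, adjusted p = 0.011) and Zic1 (1.41, adjusted p = 0.017) passed at 12 h too, and in the fit of the 4 libraries alone Pou3f2 (0.0026), Zic1 (0.0057) and, as losses, Zic2 (0.0029) and Zic5 (0.0048). All 4 gains at 48 h, and the call of Otx2 at 12 h, were lost without 0 h R2, with adjusted p of 0.078, 0.22, 0.13, 0.26 and 0.088, and those of Pou3f2 and Zic1 also without 0 h R1 (0.11 and 0.069). Without 48 h R1 the gains of Pou3f2 and Zic1 over 0 h were 1.51 and 1.39. Neighbouring genes share peaks, and these sums are not independent.

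From 12 h to 48 h, 5 of the 7 sums were gained, against 38.2% of all genes gained and 7.74% lost. The median gene moved by −0.29 at 12 h vs 0 h and by 0.32 at 48 h vs 12 h, and with TMM factors by −0.02 and 0.03. Pou3f1 went from 416 and 386 to 1049 and 709 (1.13 ± 0.18, adjusted p = 0.0037), and with TMM factors, which remove the shift, the gain was 0.83 (adjusted p = 0.0045). The call also held with DESeq2 but not without 12 h R1 (adjusted p = 0.053) or 12 h R2 (0.069). The calls of Zic2 (0.61) and Zic5 (0.60) were lost with TMM factors, at 0.32 (adjusted p = 0.063) and 0.31 (adjusted p = 0.07). Those of Pou3f2 (1.51) and Zic1 (1.38) were lost there too (adjusted p of 0.084 and 0.093), and without 48 h R1 they were 0.35 and 0.48. Otx2, at −0.26 (adjusted p = 0.151), was lost with TMM factors (−0.53, adjusted p = 0.048), with DESeq2 (−0.55, adjusted p = 0.023) and with the GC offset (−0.32, adjusted p = 0.015). The ratio of the sum of Otx2 to that of Pou3f1, within a library, was 2.42 and 2.53 before induction and 4.97 and 5.10 after 12 h. After 48 h it was 1.33 and 2.78. This ratio carries no offset for GC content, which was 47.6% at Otx2 and 57.9% at Pou3f1. With the offset the changes at 12 h vs 0 h were 1.09 and 0.53, and without it 1.10 and 0.07.

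The 27 peaks were richer in G and C than the rest, with a median of 56.4% against 50.2% of all peaks, and 63.0% of them overlapped the 2 kb around a protein-coding TSS, against 24.6%. Over all peaks, change at 12 h went along with GC content. The median log2 fold change at 12 h vs 0 h was 0.80 in peaks of 35 to 40% GC and −0.65 in peaks of 65 to 70%. The peaks of Otx2, at 0.99 to 2.18, lay above the upper quartile of peaks of like GC in all 8 cases. With an offset on GC content for each library, the gained peaks numbered 10, 18 and 10 of 27 in the same 3 comparisons, and the lost peaks 0, 0 and 1. Over all 66841 peaks the same offset gave 5822, 8041 and 9391 gains, against 6638, 5723 and 7162 without it. Gained in addition at 12 h were the coding exon peaks of Pou3f2 and Zic1 (1.30, adjusted p = 0.0176) and the upstream peak of Otx2 (1.40, adjusted p = 0.00829).

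**Figure D4:**
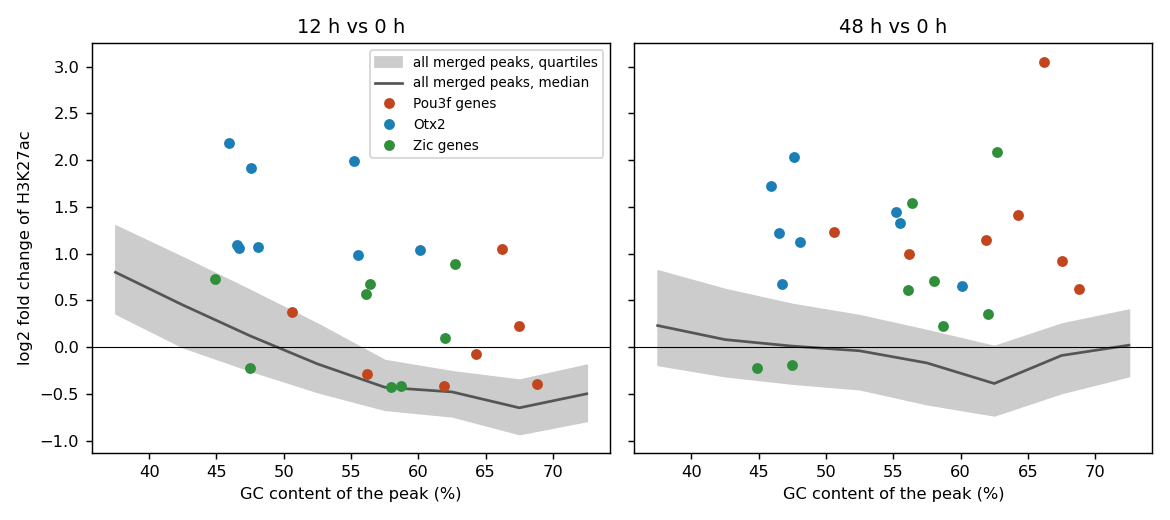
Log2 fold change of H3K27ac at 12 h vs 0 h (left) and at 48 h vs 0 h (right) against the GC content in percent, for 23 of the peaks (4 with at most 3 reads in both 0 h libraries are left out), with the median and quartiles of all merged peaks in bins of GC content. All Otx2 points lie above the grey band on the left. All POU and Otx2 points and most Zic points lie above it on the right.

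Farther out, over 10 kb and up to 100 kb from these genes, there were 42 merged peaks. The shares of all merged peaks to set beside them are 9.93% gained and 6.03% lost by 12 h, 8.56% gained and 5.45% lost by 48 h, and 10.7% gained and 8.43% lost from 12 h to 48 h. Of 12 near the Otx genes, 5 were gained by 12 h and 1 by 48 h, and from 12 h to 48 h 3 were lost and 1 was gained. Of 17 near the POU genes, 1 was lost at 12 h, 2 were gained at 48 h vs 0 h, and 6 were gained at 48 h vs 12 h. Of 13 near the Zic genes, 3 were gained at 12 h and 7 at 48 h vs 0 h, and 1 was lost in each. Otx1 had a single such peak, which was not called.

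Distal peaks of Otx2 included some that were gained at 12 h and lost again by 48 h. The peak at chr14:48699596-48701109, 25777 bp from the gene, held scaled counts of 56.4 and 58.4 before induction, 148 and 138 after 12 h, and 43.3 and 58.5 after 48 h. The 12 h libraries stood clear of the others, with a gain of 1.31 (adjusted p = 0.000835) and a loss of −1.47 from 12 h to 48 h (adjusted p = 0.00041). The peak at chr14:48723096-48723922 followed the same course, with 9.24 and 8.49, 48.2 and 45.1, and 13.3 and 23.2. On the other side of the gene, the peak at chr14:48579420-48580663 held 22.6 and 22.3 before induction and 75.5 and 73.1 after 48 h (1.72, adjusted p = 0.000259). Near Pou3f1, the peak at chr4:124699918-124702395 was lost at 12 h (204 and 206 to 120 and 128, −0.72, adjusted p = 0.0271), but not with the GC offset (−0.37, adjusted p = 0.162), and was gained from there to 48 h (369 and 238, 1.28, adjusted p = 0.000409). The distal peaks given here were chosen after their values were seen, and they were not refitted without single libraries.

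Relatives and partners of these genes were read from the same table of summed counts. Among paralogs, Pou3f4 and Crx had no peak, and Zic4 was gained at 48 h vs 0 h together with the peaks it shares with Zic1 (1.92, adjusted p = 0.0084). Of 18 factors of the early neural plate, 16 had a peak, and 3 were gained at 48 h vs 0 h, against 6.45% of all genes, namely Irx3 (1.56, adjusted p = 0.00787), Gbx2 (0.89, adjusted p = 0.00854) and Lhx2 (1.76, adjusted p = 0.0396). At 12 h 2 of these 16 were lost, where 30.2% of all genes were. With the GC offset the calls were 3 gains, and over all 16175 genes that offset gave 1972 gains and 1182 losses. Of 12 genes of formative and primed pluripotency, the state in which Otx2 acts, 7 were gained at 12 h, against 7.13% of all genes, and 9 with the GC offset. At 48 h vs 0 h, 4 of the 12 were gained, among them Sall2 (0.93, adjusted p = 0.000616), Lef1 (1.19, adjusted p = 0.00251) and the DNA methyltransferase Dnmt3b (0.60, adjusted p = 0.0114), and Etv4 was lost (−0.60, adjusted p = 0.0294). Of the calls named here that of Sall2 alone held in all alternatives, with adjusted p up to 0.0331, and those of the others reached 0.0864 (Lef1) to 0.399 (Etv4).

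The genes with the most similar profile were sought among 12730 genes by Pearson's r of log2 summed counts over the 6 libraries, as a description. For Pou3f1 they were Igdcc3 (0.999), Marcks (0.999) and Celf4 (0.998), for Otx2 they were Sept14 (1.000), Ryr3 (0.997) and Rai14 (0.997), and for Pou3f2 they were Asxl1 (0.996), Bcr (0.996) and Top2b (0.992). These r rest on 6 libraries that fall into 3 time points. Marcks, for example, summed to 644 and 556 before induction, 634 and 588 after 12 h, and 1693 and 1142 after 48 h, the course of Pou3f1 including the gap between 48 h R1 and R2. Ryr3, a calcium channel, summed to 379 and 323, 1263 and 1322, and 682 and 1218, with the low 48 h R1 that was seen for Otx2. For Zic1 the closest was Pdrg1 (0.985), and for Zic2 and for Zic5 it was Gm14399 (0.995 and 0.996).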

How the data were processed

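H3K27ac ChIP-seq libraries of A2Lox mouse ES cells (line A2lox-NeuroD1) were used, 2 at each of 3 time points (0 h, 12 h, 48 h). Time point and replicate number came from the sample labels. Reads were mapped by the authors to mm10 using Bowtie2, who then sorted them with SAMtools 0.1.19, called peaks with MACS2 against an Input library, merged them over all samples and deposited raw read counts per merged peak. The Input itself was not used here.

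Counts were tested by the quasi-likelihood test of edgeR 4.0.16 under R 4.3.3 (library totals as offset, Benjamini-Hochberg adjustment, threshold 0.05) over all 66841 peaks and, summed over the peaks within 10 kb of the gene body, over 16175 protein-coding genes of GENCODE M21. Alternatives were TMM factors, DESeq2 1.42.0, a filter of 10 counts in 2 libraries, a replicate block, the 4 libraries compared alone, a GC offset (lowess, span 0.3), leaving out each library, and a pseudocount of 8. Sequence was read from mm10 with pysam 0.24.0. Depth was 6283103 to 8112895 reads a library, and intervals and errors cover the spread between 2 libraries only. On simulated data for 48 h vs 0 h with the depth of these libraries, edgeR recovered 44 of 100 peaks changed by 1 log2 unit and 91 of 100 changed by 2, with 5 false calls. The same test on gene sums recovered 93 and 100 of 100, with 11 false calls. The simulation gave all libraries the same spread, while the real 48 h libraries were less alike than the others. Changed peaks and genes were drawn from those with a mean scaled count of at least 20. These numbers therefore do not give the recovery for the real 48 h libraries, or for peaks with fewer reads. With a GC trend added to the simulated libraries, false calls without the GC offset numbered 569 over peaks and 1305 over genes, and 5 and 10 with it.

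Of the peaks of each gene, the 1 with the highest mean scaled count within 2 kb of a TSS and the 1 with the lowest p over time among those with at least 20 reads were described in full. The genes, the lists and these rules were chosen with earlier results of these data known. The lists cover an item that is not reported here.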

Additional observations from a re-analysis of the deposited data

Results flagged for a closer look

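The change since 0 h differed between 12 h and 48 h at 11 of the 27 peaks, by the test of 48 h against 12 h itself (edgeR, adjusted p under 0.05). Over all merged peaks that test called 10.7% as gained and 8.43% as lost. The log2 fold change from 12 h to 48 h in the 4 peaks of Pou3f1, from the farthest upstream to the coding exon, was 0.85, 1.29, 1.02 and 1.49. At the coding exon peak of Pou3f2 it was 2.00. In Zic1 it was 1.78 at the inner exon, 1.20 at the first coding exon and 2.19 upstream of the TSS, the last a fitted value against 3 and 3 reads at 12 h. It was 0.64 at the Zic5 promoter, 1.13 at the Zic2 promoter and −0.95 at the peak between them. Of the summed counts, those of Pou3f1 (1.13), Pou3f2 (1.51), Zic1 (1.38), Zic2 (0.61) and Zic5 (0.60) differed in this way. Those of Pou3f2, Zic1, Zic2 and Zic5 did not pass with TMM factors. Over all genes, the same test without those factors called 38.2% as gained and 7.74% as lost. No group held the 4 libraries that a search for outlying samples needs.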

How the results depend on the processing

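With 2 libraries a time point and 3 residual degrees of freedom, the calls were sensitive to which libraries were kept. Leaving out 1 library at a time gave 2 to 13 called peaks of 27 at 12 h vs 0 h (7 with all), 4 to 19 at 48 h vs 0 h (14) and 3 to 16 at 48 h vs 12 h (11), and 0 to 5, 0 to 7 and 0 to 7 called genes of 7 (1, 4 and 5 with all). Fitting only the 4 libraries compared gave 11 peaks and 5 genes at 12 h, and 3 genes at 48 h vs 12 h. DESeq2 called 9 peaks at 48 h vs 0 h and 2 genes at 48 h vs 12 h, TMM factors 2 genes at 48 h vs 12 h, and the GC offset 4 genes at 12 h. Of 1284 single values under the alternatives 41 turned sign, none of them for a change called with all libraries, and 1 of the 41 passed the threshold. It was that of the small Otx2 intron peak chr14:48660218-48660727, at 48 h vs 12 h, where leaving out single libraries gave −1.66 (without 48 h R2) to 0.83 (without 48 h R1) around 0.14. Over all merged peaks, edgeR called 10666, 9365 and 12796 in the 3 comparisons and DESeq2 5293, 4622 and 7465. Gains and losses at 12 h numbered 6638 and 4028 with library totals and 7574 and 2641 with TMM factors over peaks, and 1154 and 4889 against 1887 and 686 over genes. Over genes at 48 h vs 12 h they numbered 6184 and 1252 against 1796 and 2483. The cause of these shifts was not tested.

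R1 and R2 share a number and nothing in the labels pairs them. Deviations of same-numbered libraries from their group means correlated at −0.0372, −0.0521 and 0.0817 over 63709 peaks. With a replicate block the counts of called peaks were 7, 14 and 11, and those of genes 2, 6 and 5. The block added Pou3f2 at 12 h (1.21, adjusted p = 0.043) and Zic2 and Zic5 at 48 h vs 0 h (both 0.38, adjusted p of 0.048 and 0.047), and changed no other call. Taking peaks within 2 kb of the gene bodies in place of 10 kb left 19 of 27 peaks. Peaks with under 20 reads, 11 of the 27, carry a wide counting error.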
